A study of Mus musculus with 24 samples.

Results

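The transcription factors that hold mouse embryonic stem cells (ESCs) in the naive state were followed in RNA-seq of ESC clones that lack 1 or more Tet genes. The 10 factors are Klf2, Klf4, Klf5, Esrrb, Tbx3, Tfcp2l1, Zfp42, Nr0b1, Prdm14 and Nr5a2. They were taken by symbol from the count tables of both days, 10 of 22926 symbols in all, and all 10 passed the filter on low counts, which kept 15639 symbols in the fit of all libraries. Tet proteins oxidize methylated cytosine, a step towards removal of DNA methylation.

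The 24 libraries came from 5 genotypes, each sampled undifferentiated (D0) and 6 days after leukemia inhibitory factor (LIF) was taken out of the medium (D6). On either day, WT and Tet1-/- were represented by 3 clones and the other genotypes by 2: Tet2-/-, the double knockout DKO (no Tet1, no Tet2) and the triple knockout TKO (all of Tet1, Tet2, Tet3 deleted). All clones, WT included, belong to 1 parental ESC line of 129/SVj mice that carries an eGFP reporter at the Oct4 locus, and the knockouts were made with CRISPR/Cas9 by small insertions or deletions. A library is 1 clone on 1 day, so the spread within a genotype holds the spread between clones of that line and that of culture and library preparation. These cannot be told apart. Cells were kept on gelatin without feeder cells. WT, Tet2-/- and TKO had identical clones at D0 and D6. In DKO 1 of the D6 libraries has a clone label without the decimal point, and it was read here as the D0 clone with the same digits. Of the Tet1-/- clones, 2.1 and 2.4 were sampled on both days, while 2.3 has a D0 library alone and 2.2 a D6 library alone. WT and Tet1-/- libraries are named here by clone and the others by replicate number, which marks 1 clone on both days in Tet2-/- and TKO but not in DKO.

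LIF acts through its receptor and the kinases of the JAK family on STAT3, which feeds the naive factors, and when LIF is removed ESCs leave the naive state for a formative, then a primed state and start to form germ layers. Klf2, Klf4 and Klf5 are zinc-finger factors of one family that can stand in for each other in self-renewal. Esrrb, Nr5a2 and Nr0b1 belong to the nuclear receptors: Esrrb and Nr5a2 bind DNA as orphan receptors, and Nr0b1 (Dax1) lacks the usual DNA-binding domain and acts as a partner of other factors. Tfcp2l1, a direct target of STAT3, and the T-box factor Tbx3 take part in LIF signalling, Prdm14 holds back FGF signalling and DNA methyltransferases, and Zfp42 (Rex1) is the zinc-finger protein most used as a marker of the naive state.

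The genes lie apart from each other in the genome, so no factor shares its locus with another. In mm9, the build of the count tables, Klf2 is at chr8:74842932-74845555 (plus strand), Klf4 at chr4:55540013-55545347 (minus), Klf5 at chr14:99697910-99712624 (plus), Esrrb at chr12:87702067-87862578 (plus) and Tbx3 at chr5:120120678-120134733 (plus). Tfcp2l1 is at chr1:120524522-120581744 (plus), Zfp42 at chr8:44380422-44392363 (minus), Nr0b1 at chrX:83437103-83441286 (plus), Prdm14 at chr1:13103538-13117244 (minus) and Nr5a2 at chr1:138740161-138857004 (minus). The reads were counted over the exons of each gene's transcripts.

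Because all 10 factors were lower after 6 days without LIF, the 250 bases before the start of transcription are shown for 5 of them, from the RefSeq promoter table of build GRCm38.p6, which held 7 of the 10 (9 starts, with 2 each for Esrrb and Nr5a2). Klf5, Tbx3 and Prdm14 had no entry. Motifs of 6 kinds were looked for on both strands, and every match is in capitals: GGGCGGGG and GGGTGTGG (bound by KLF factors), TTCNNNGAA (STAT factors), AAGGTCA (Esrrb and Nr5a2), ATGCAAAT (POU factors such as Oct4) and TATAAA (the TATA box).
Klf2, chr8:72318812-72319061, plus strand: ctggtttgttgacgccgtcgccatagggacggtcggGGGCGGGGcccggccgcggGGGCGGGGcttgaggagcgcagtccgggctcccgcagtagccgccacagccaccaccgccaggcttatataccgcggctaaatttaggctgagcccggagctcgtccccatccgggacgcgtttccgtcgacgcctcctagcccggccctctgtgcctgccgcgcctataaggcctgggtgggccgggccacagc
Klf4, chr4:55532476-55532725, minus strand: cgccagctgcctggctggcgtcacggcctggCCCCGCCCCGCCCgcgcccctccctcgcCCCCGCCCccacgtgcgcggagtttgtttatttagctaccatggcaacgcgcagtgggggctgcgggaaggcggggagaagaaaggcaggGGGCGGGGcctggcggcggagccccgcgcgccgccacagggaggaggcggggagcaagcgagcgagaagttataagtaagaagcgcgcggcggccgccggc
Esrrb, start 1, chr12:86360867-86361116, plus strand: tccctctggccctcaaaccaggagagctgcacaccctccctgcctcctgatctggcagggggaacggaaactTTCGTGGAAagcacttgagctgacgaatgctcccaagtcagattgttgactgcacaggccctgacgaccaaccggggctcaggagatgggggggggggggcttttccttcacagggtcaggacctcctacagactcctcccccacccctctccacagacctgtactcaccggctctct
Zfp42, chr8:43307010-43307259, minus strand: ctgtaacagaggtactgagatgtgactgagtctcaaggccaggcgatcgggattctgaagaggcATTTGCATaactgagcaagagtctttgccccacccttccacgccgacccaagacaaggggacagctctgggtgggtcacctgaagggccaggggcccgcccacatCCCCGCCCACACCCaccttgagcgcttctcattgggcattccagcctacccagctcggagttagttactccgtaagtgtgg
Nr0b1, chrX:86191525-86191774, plus strand: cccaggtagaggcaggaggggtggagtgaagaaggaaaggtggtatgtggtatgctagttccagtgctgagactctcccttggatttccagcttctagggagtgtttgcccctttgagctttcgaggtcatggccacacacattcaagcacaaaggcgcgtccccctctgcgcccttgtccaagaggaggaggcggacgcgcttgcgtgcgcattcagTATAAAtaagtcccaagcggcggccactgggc

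The sequences of Klf2 and Klf4 were rich in G and C, at 71.2% and 74% of the bases. GGGCGGGG stood at 2 places in Klf2, which begin 214 and 195 bases before the start, and at 4 in Klf4 (219, 214, 191 and 101 bases before it), where the matches at 219 and 214 overlap. The same motif is in 16.1% of the 32851 promoters of the table over the same 250 bases. In Zfp42 an ATGCAAAT lay 186 bases before the start (1.6% of promoters), and GGGCGGGG and GGGTGTGG (3.2%) overlapped at 81 and 75 bases. Esrrb had a single TTCNNNGAA, 178 bases before start 1 (7.02% of promoters), and no match at start 2. A TATAAA stood 32 bases before the start of Nr0b1, 28 before that of Tfcp2l1 and 181 before start 1 of Nr5a2 (12.4% of promoters). AAGGTCA, found in 4.08% of promoters, was in none of the 9 windows. These are matches of letters and no measurement of binding.

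Libraries held 21729346 to 37290208 counts at D0 and 18400463 to 34219640 at D6. Levels are given as CPM, counts normalised to the library total after scaling by edgeR's TMM factors, and at these depths 3 counts, the limit that a count of 0 allows, came to at most 0.151 CPM, well under the lowest level of any factor (counting error only). RNA of the edited genes does not report small deletions directly. At D0 Tet2 RNA stood at 87.9 to 94.0 CPM in WT, 20.9 and 23.2 in Tet2-/-, while the DKO libraries had 22.3 and 55.7 CPM and those of TKO 8.16 and 42.5, and at D6 it was 12.3 to 16.0 in WT and 15.9 and 16.6 in Tet2-/-. Tet1 RNA overlapped between WT (220 to 431) and Tet1-/- (93.4 to 358) at D0, and it was 41.7 and 568 CPM in the 2 TKO clones. Tet3 RNA at D0 was 5.05 to 7.94 CPM in WT and 2.84 and 4.43 in TKO. The ESC markers Pou5f1 (693 to 856 CPM in WT) and Nanog (679 to 784) were present in all D0 libraries.

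Some libraries stood apart from others of their genotype, and they matter for what follows. WT clone O4.2 kept more of most factors at D6 than clones O4.1 and O4.13. Tet1-/- clone 2.2, sampled at D6 only, was the lowest of the 12 D6 libraries for 4 factors. At D0 TKO replicate 2 was the lowest of the 12 libraries for 5 factors, and TKO replicate 1 the highest for 2. No share over all genes was taken for such counts, so they describe the libraries and are no trait of the factors.

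In undifferentiated WT cells all 10 factors were well expressed. Per kilobase of exon (lengths from GENCODE vM1, which approximate the transcripts used in the counting), Zfp42 was the highest, at 489 ± 41.9 CPM per kb (SD, n = 3), followed by Klf2 at 193 ± 14.9, Esrrb at 135 ± 4.61 and Klf5 at 102 ± 3.62. Klf4 (85.3 ± 6.76), Tfcp2l1 (85.3 ± 3.36) and Nr0b1 (79.2 ± 4.36) were neighbours whose libraries overlapped. Tbx3 (55.2 ± 6.78), Nr5a2 (36.0 ± 3.46) and Prdm14 (17.0 ± 0.573) closed the order, and none of these 3 overlapped its neighbours. At D6 the order per kilobase in WT was no longer clear, since each factor overlapped the next: Zfp42 (43.4 ± 22.1) was still first, Klf5 (30.5 ± 2.94) was now second and Prdm14 (4.38 ± 2.69) was last.

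**Figure D1:**
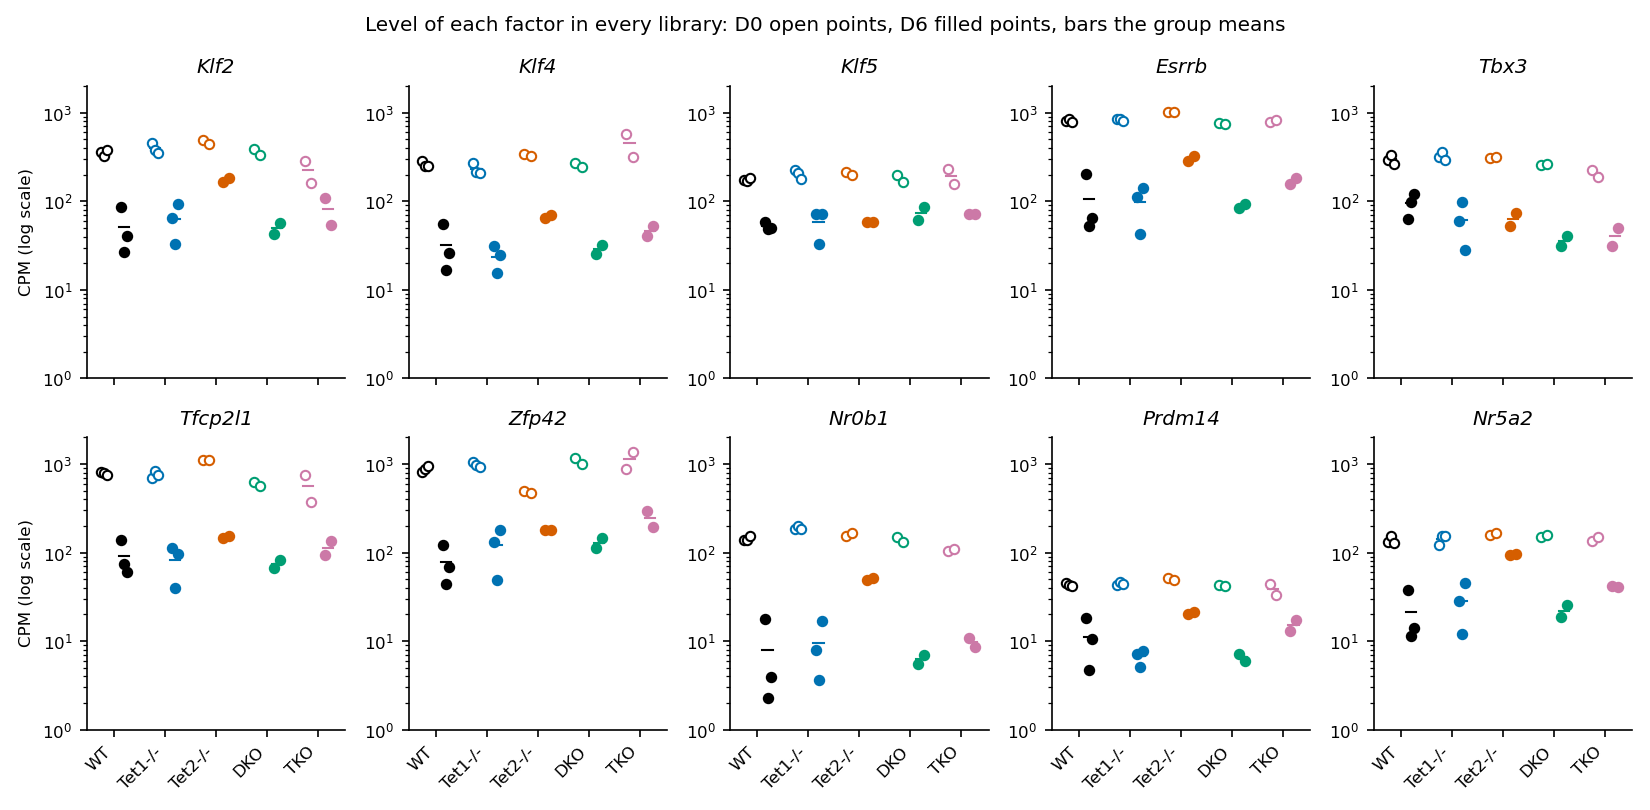
CPM (log scale) of each factor in every library, by genotype on the horizontal axis; open points are D0 libraries, filled points D6 libraries and bars the group means. D6 points lie below the D0 points of the same genotype in all 10 panels, and the 2 Tet2-/- points at D6 lie above the 3 WT points for 8 factors, most visibly Nr0b1 and Nr5a2.

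The first comparison asked how far the factors fall in each genotype once LIF is gone. In WT all 10 fell and passed the test (the quasi-likelihood test of edgeR, p adjusted over all tested genes by Benjamini and Hochberg and under 0.05, with a change over 2-fold, a rule referred to as called), while 13.3% of all tested genes were called lower. The median of their log2 fold changes was -2.87, beside 0.01 over all tested genes. All 10 also had every D6 library under every D0 library, as had 34.9% of all genes. In bulk RNA, fewer cells that express a gene cannot be told apart from less of its RNA per cell.

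Among the KLF factors, Klf2 went from 362, 326 and 381 CPM at D0 (clones O4.1, O4.2 and O4.13) to 26.7, 85.6 and 40.8 at D6. Klf4 went from 285, 251 and 248 to 16.8, 54.8 and 25.8. Clone O4.2 ended highest for both, and the days did not overlap. The log2 fold changes were -2.80 for Klf2 (SE 0.384, adjusted p = 4.27e-06, edgeR) and -3.00 for Klf4 (SE 0.329, adjusted p = 3.07e-07). Klf5 fell less, from 173, 170 and 182 CPM to 48.8, 58.3 and 50.4, a log2 fold change of -1.74 (SE 0.219, adjusted p = 1.61e-06), and its D6 clones lay close together.

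Of the nuclear receptors, Nr0b1 had the largest fall among the 10 factors, from 139, 138 and 152 CPM to 2.27, 17.9 and 3.98 in the same order of clones (log2 fold change -4.13, SE 0.522, adjusted p = 1.67e-06, edgeR). Esrrb went from 811, 846 and 791 CPM to 53.0, 202 and 65.3 (-2.93, SE 0.393, adjusted p = 3.32e-06). For both, clone O4.2 kept several times the level of the other WT clones. Nr5a2 went from 133, 153 and 128 CPM to 11.6, 37.7 and 14.1 (-2.70, SE 0.380, adjusted p = 5.76e-06).

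Zfp42, the naive marker, went from 804, 883 and 955 CPM to 44.5, 122 and 67.9 (log2 fold change -3.49, SE 0.375, adjusted p = 2.42e-07, edgeR). The STAT3 target Tfcp2l1 went from 819, 795 and 757 CPM to 73.5, 140 and 60.3 (-3.11, SE 0.338, adjusted p = 2.70e-07). Clone O4.2 again ended highest for both. Prdm14, the least abundant factor, went from 45.1, 43.1 and 42.3 CPM to 4.69, 18.4 and 10.6 (-1.94, SE 0.289, adjusted p = 1.10e-05).

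Tbx3 had the smallest fall in WT, and its clones stood in another order. It went from 296, 333 and 260 CPM to 98.0, 63.8 and 122, a log2 fold change of -1.65 (SE 0.307, adjusted p = 0.000119, edgeR). Clone O4.2, highest for the other 9 factors among the WT clones at D6, was the lowest of the 3 for Tbx3.

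The knockouts other than Tet2-/- lost the factors as well. In Tet1-/- all 10 were called lower (11.2% of all tested genes), with log2 fold changes from -1.79 (Klf5) to -4.32 (Nr0b1) and a median of -2.89. In DKO all 10 were called lower (10.6% of genes), from -1.29 (Klf5) to -4.48 (Nr0b1), with a median of -2.92. In TKO the 10 were again called lower (8.63% of genes), from -1.37 (Prdm14) to -3.45 (Nr0b1), with a median of -2.23. Without D0 replicate 1 or D6 replicate 2 Klf2 was no longer called in TKO, which left 9. The D6 libraries lay under all D0 libraries for 10 of 10 factors in each of these genotypes, a separation seen for 34.3% of genes (Tet1-/-), 42.7% (DKO) and 32.1% (TKO).

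In Tet2-/- 9 of 10 factors were called lower, beside 6.44% of all tested genes, and the changes were smaller, with a median log2 fold change of -1.70. Tfcp2l1 fell the most, from 1097 and 1112 CPM (replicates 1 and 2) to 144 and 152 (-2.90, SE 0.409, adjusted p = 2.34e-05, edgeR), and Klf4 went from 340 and 327 CPM to 65.0 and 70.5 (-2.30, SE 0.389, adjusted p = 0.000150). Nr0b1, the factor with the largest fall in each other genotype, went from 154 and 164 CPM to 48.4 and 51.2 (-1.67, SE 0.565, adjusted p = 0.0247). Nr5a2 was the factor not called: it stood at 159 and 165 CPM at D0 and 94.1 and 96.6 at D6, so the days did not overlap, but the log2 fold change of -0.76 (SE 0.434, 95% confidence interval -1.67 to 0.14) had an adjusted p of 0.170. All 10 factors had lower libraries at D6 than at D0, as had 40.8% of all genes. Without 1 of the 4 Tet2-/- libraries 4 to 8 factors were called, beside 4.06% to 5.68% of genes, the lowest count without D6 replicate 1 (Klf4, Klf5, Tbx3 and Tfcp2l1), in fits where the lone clone is assumed to vary like the other groups.

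**Figure D2:**
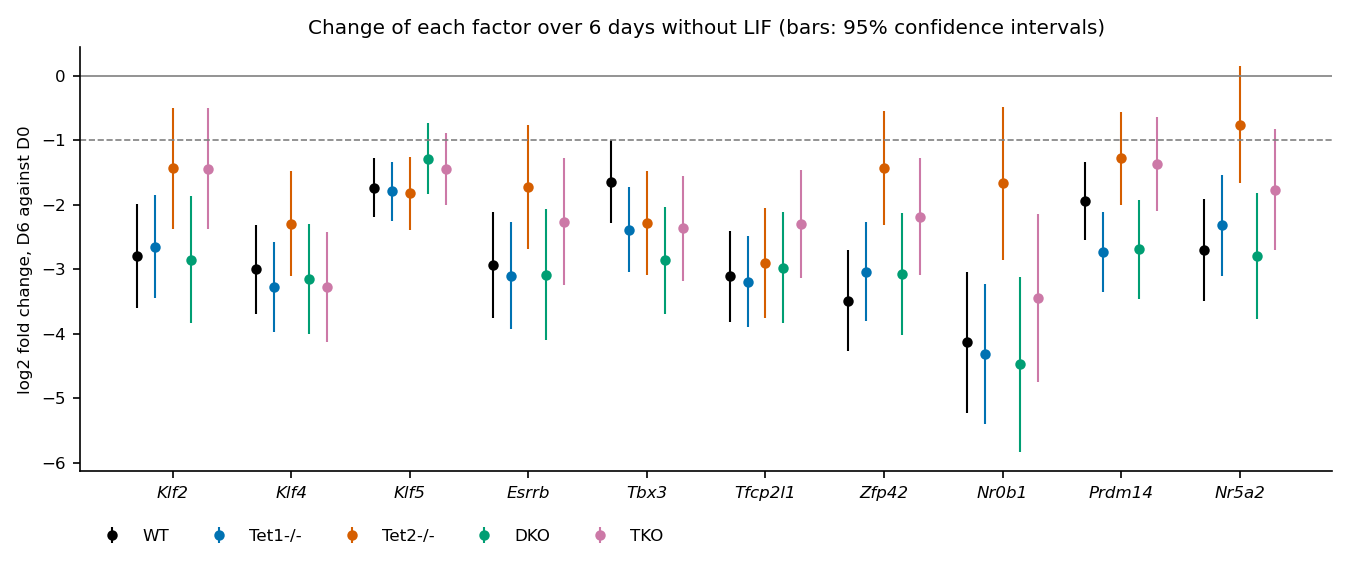
Log2 fold change of each factor at D6 against D0 in the 5 genotypes; points are estimates of edgeR, bars 95% confidence intervals and the dashed line a 2-fold decrease. All estimates lie below 0, from -0.76 (Nr5a2 in Tet2-/-) to -4.48 (Nr0b1 in DKO), and for Nr5a2 in Tet2-/- the interval reaches 0.14.

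The same clones could be followed from D0 to D6, which gives each clone's own share of the D0 level that was left. In WT the median share over the 10 factors was 8.03% in clone O4.1, 22.8% in O4.2 and 10.6% in O4.13. In Tet1-/- it was 15.2% (clone 2.1) and 17.5% (2.4), and in the DKO clones 13.6% and 11.8%, as far as the reading of the DKO label holds. The medians were higher in TKO, at 24.2% (replicate 1) and 26.8% (replicate 2), and highest in Tet2-/-, at 30.1% (replicate 1) and 31.5% (replicate 2). WT clone O4.2 thus lay between the Tet1-/- and the TKO clones, while the other WT clones had the lowest shares of all 11. The factor with the least left was Nr0b1 in 8 of the 11 clones, down to 1.64% in WT clone O4.1, and it was Tfcp2l1 in both Tet2-/- clones (13.1% and 13.6%) and Klf4 in TKO replicate 1 (6.93%). Nr5a2 kept the most in Tet2-/-, 59.1% and 58.7%.

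**Figure D3:**
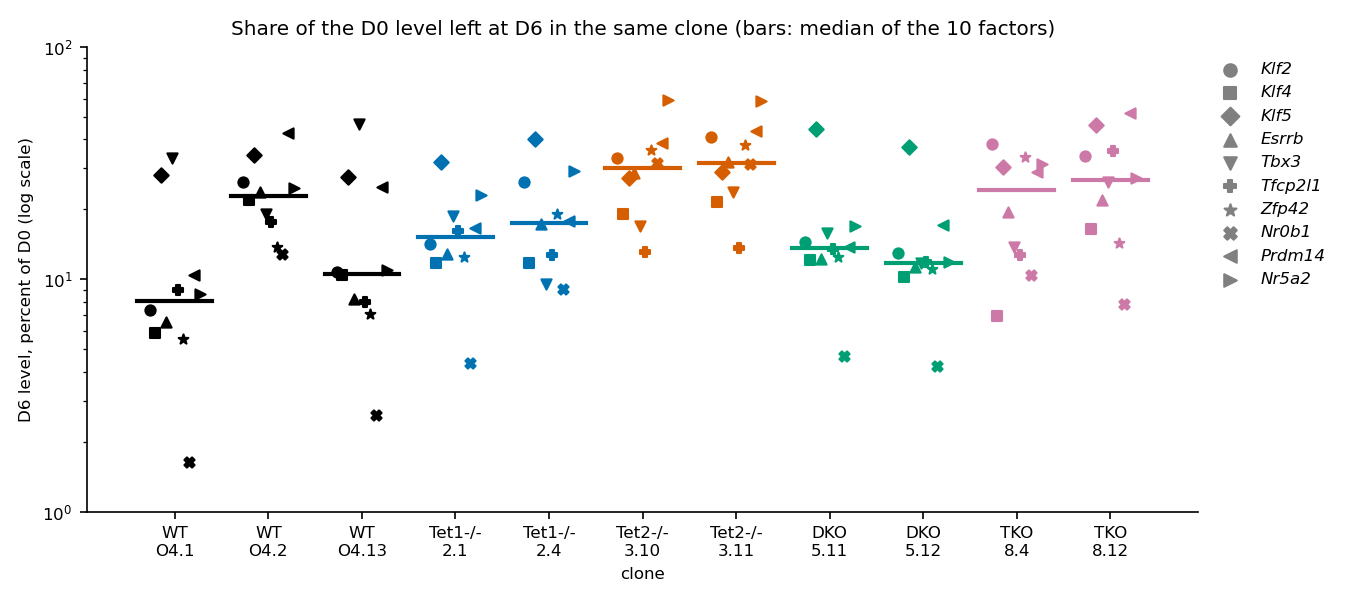
D6 level as a percent of the D0 level of the same clone (log scale) for the 11 clones sampled on both days; each symbol is a factor and each bar the median of the 10. Medians run from 8.03% (WT O4.1) to 31.5% (Tet2-/- replicate 2), and Nr0b1 is the lowest symbol in the WT, Tet1-/- and DKO clones.

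The next comparison asked whether the knockouts differ from WT before LIF is removed. All comparisons with WT on a day share the same 3 WT libraries. No factor was called in any knockout at D0, where the shares of all genes called lower and higher were 0.00692% and 0.00% (Tet1-/-), 2.37% and 0.816% (Tet2-/-), 0.0208% and 0.0138% (DKO), 2.12% and 1.03% (TKO). Some differences of less than 2-fold had an adjusted p under 0.05: those of 2 factors in Tet2-/- (9.80% of all genes), 3 in TKO (8.61%) and 0 in Tet1-/- and DKO (0.0138% and 0.0484%). At an unadjusted p under 0.05 there were 1 factor in Tet1-/- (12.6% of all genes), 3 in Tet2-/- (29.2%), 0 in DKO (14.4%) and 6 in TKO (26.4%).

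Zfp42 in Tet2-/- showed the largest difference from WT at D0 among all factors and knockouts. It stood at 493 and 468 CPM in Tet2-/-, against 804, 883 and 955 in WT, and the other knockouts ran from 884 to 1366 CPM. Both Tet2-/- clones were thus below every other D0 library. The log2 fold change against WT was -0.89 (SE 0.157, 95% confidence interval -1.24 to -0.55, adjusted p = 0.0105, edgeR), which falls short of the 2-fold criterion. Against the mean of Tet1-/-, DKO and TKO it was -1.16 (SE 0.145, adjusted p = 0.000890) and was called, beside 3.14% of genes called lower in that comparison.

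The estimates for the other 9 factors were above 0 in undifferentiated Tet2-/- cells. Esrrb stood at 1009 and 1014 CPM, against 791 to 846 in WT, a log2 fold change of 0.29 (SE 0.0761, adjusted p = 0.0353, edgeR). Tfcp2l1 was at 1097 and 1112 CPM against 757 to 819 in WT (0.46, SE 0.200, adjusted p = 0.149). Both Tet2-/- clones were above all 3 WT clones for 8 factors and below them for 1, where 30.8% and 26.4% of all genes separate in these directions. Against the mean of the other knockouts, Esrrb (0.33, adjusted p = 0.00663), Tfcp2l1 (0.80, adjusted p = 0.00847) and Klf2 (0.55, adjusted p = 0.0335) were higher by less than 2-fold.

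TKO cells at D0 had a mixed pattern that differed between the clones. Klf4 stood at 580 CPM in replicate 1 and 320 in replicate 2, against 248 to 285 in WT (log2 fold change 0.78, SE 0.191, adjusted p = 0.0279, edgeR). Tbx3 was at 228 and 189 CPM against 260 to 333 (-0.51, SE 0.121, adjusted p = 0.0255), and Nr0b1 at 105 and 109 CPM against 138 to 152 (-0.42, SE 0.0926, adjusted p = 0.0189). For Tbx3 and Nr0b1 both TKO clones were under all WT clones, and for Klf4 both were above. For Klf2, with 288 and 160 CPM against 326 to 381, the adjusted p was 0.0569, and Tfcp2l1 was at 746 CPM in replicate 1 and 375 in replicate 2. Without replicate 1, Klf2 (-1.16, adjusted p = 0.000101) and Tfcp2l1 (-1.08, adjusted p = 1.39e-05) passed the criteria, beside 4.65% of all genes called lower, and without replicate 2 Klf4 did (1.15, adjusted p = 5.28e-05), beside 2.33% called higher. Each of these fits sets 1 TKO library against WT and assumes that it varies like the other groups, so they describe that library and not the genotype. Other markers stood apart in replicate 2 as well. Its 7 endoderm genes summed to 21.6 CPM, against 5.93 in replicate 1 and 4.88 to 6.67 in WT, and its 13 formative and primed genes to 840 CPM, against 494 and 567 to 646. The part of these markers in the low Klf2 and Tfcp2l1 of that library was not tested.

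Tet1-/- and DKO cells were close to WT at D0. In Tet1-/- Nr0b1 stood at 183, 201 and 186 CPM against 138 to 152 in WT, a log2 fold change of 0.39 (SE 0.0818, 95% confidence interval 0.21 to 0.57) with an adjusted p of 0.111, and the other 9 differences ran from -0.20 (Klf4) to 0.19 (Klf5). In DKO the differences ran from -0.43 (Tfcp2l1, 617 and 564 CPM, adjusted p = 0.360) to 0.29 (Zfp42, adjusted p = 0.404). The libraries separated from WT for 1 factor higher and 0 lower in Tet1-/- (13.5% and 10.1% of all genes), for 1 higher and 2 lower in DKO (22.4% and 19.1%) and for 1 higher and 4 lower in TKO (16.7% and 17.2%).

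At D6 the question was whether the knockouts keep more of the naive factors than WT. In Tet2-/- Klf2, Nr0b1 and Nr5a2 were called higher, 3 of 10 factors beside 4.81% of all tested genes, while 0 factors and 9.45% of genes were called lower. The median log2 fold change of the 10 was 1.10, beside -0.03 over all genes. Nr0b1 had 48.4 and 51.2 CPM in Tet2-/- against 2.27, 17.9 and 3.98 in WT (clones O4.1, O4.2 and O4.13), a log2 fold change of 2.60 (SE 0.731, adjusted p = 0.0249, edgeR). Nr5a2 had 94.1 and 96.6 CPM against 11.6, 37.7 and 14.1 (2.15, SE 0.524, adjusted p = 0.0151). Klf2 had 164 and 181 CPM against 26.7, 85.6 and 40.8 (1.73, SE 0.491, adjusted p = 0.0255). For these 3, even WT clone O4.2 lay under both Tet2-/- clones.

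For 5 more factors both Tet2-/- clones lay above all WT clones at D6, which makes 8 of 10, where 31.4% of all genes separate in this direction. Esrrb had 288 and 323 CPM against 53.0 to 202 in WT (log2 fold change 1.50, SE 0.534, adjusted p = 0.0567, edgeR), and Klf4 had 65.0 and 70.5 against 16.8 to 54.8 (1.04, SE 0.412, adjusted p = 0.0793). Zfp42 had 178 and 178 CPM against 44.5 to 122 (1.16, SE 0.477, adjusted p = 0.0865). These 3 missed the threshold. Prdm14 (0.86, adjusted p = 0.138) and Tfcp2l1 (0.67, adjusted p = 0.232) were the other 2. The remaining pair overlapped WT: Klf5 was at 58.9 and 57.7 CPM against 48.8 to 58.3 (0.13, 95% confidence interval -0.48 to 0.75), and Tbx3 at 52.0 and 74.6 against 63.8 to 122 (-0.59, 95% confidence interval -1.55 to 0.36).

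The count of factors called in Tet2-/- at D6 depended on single libraries. Without WT clone O4.2 it was 8, all factors but Klf5 and Tbx3, beside 6.72% of all genes called higher in that fit, with log2 fold changes of 3.96 for Nr0b1, 2.88 for Nr5a2, 2.36 for Esrrb and 2.34 for Klf2. Without WT clone O4.1 it was 1 (Nr5a2, 1.89, adjusted p = 0.0456; 3.22% of genes), and without WT clone O4.13 (2.64% of genes) or without either Tet2-/- clone (0.779% and 0.00%) it was 0. With 1 Tet2-/- clone left, that clone is assumed to vary like the other groups. In those 4 fits the estimates for Nr0b1, Nr5a2 and Klf2 stayed between 1.45 and 2.64, with adjusted p-values of 0.0456 to 0.130.

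**Figure D4:**
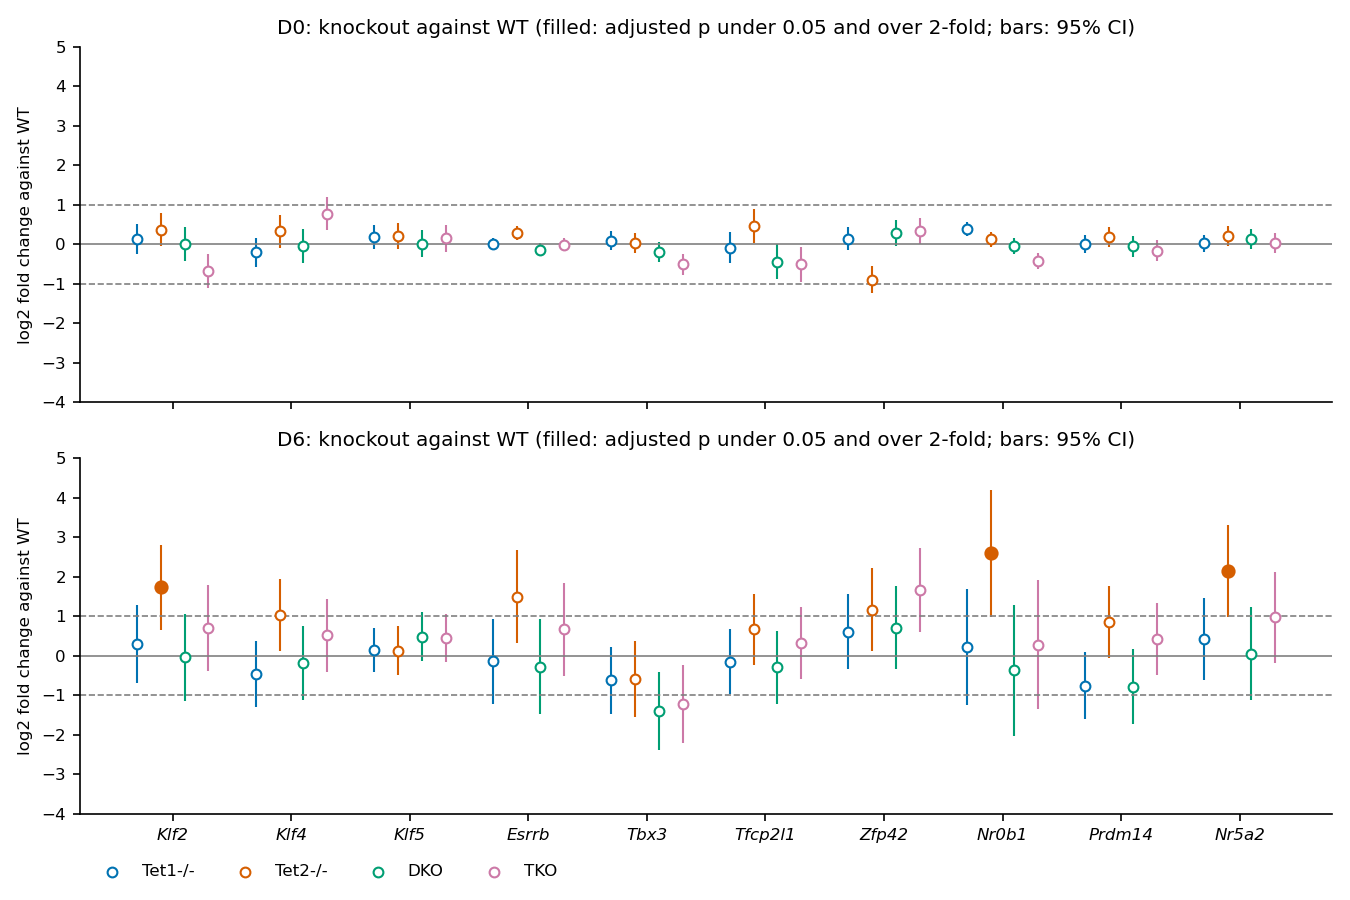
Log2 fold change of each knockout against WT at D0 (upper panel) and D6 (lower panel), with 95% confidence intervals; filled points are called and dashed lines mark 2-fold. No point is filled at D0, where Zfp42 in Tet2-/- is the lowest at -0.89, and at D6 the filled points are Klf2, Nr0b1 and Nr5a2 in Tet2-/-.

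Against WT at D6 no factor was called in the knockouts other than Tet2-/-, and neither was any other gene (0.00% in each direction, edgeR). By DESeq2 0, 1 (Tbx3) and 2 (Tbx3 and Zfp42) factors were called in these genotypes, beside 44, 189 and 481 of all genes. At an unadjusted p under 0.05 the numbers of factors were 0 in Tet1-/-, 1 in DKO and 2 in TKO, beside 12.6%, 14.6% and 23.5% of all genes, so these counts are near the background. In Tet1-/- the 10 differences ran from -0.75 (Prdm14) to 0.61 (Zfp42) and 0 factors separated from WT (8.56% of genes higher, 7.33% lower). Tbx3 stood at 31.1 and 40.9 CPM in DKO and at 31.3 and 49.7 in TKO, under the 63.8 to 122 of WT, with log2 fold changes of -1.39 (SE 0.450, adjusted p = 0.239) and -1.21 (SE 0.448, adjusted p = 0.145). Zfp42 was at 298 and 195 CPM in TKO, above the 44.5 to 122 of WT (1.67, SE 0.478, adjusted p = 0.0894). The separation held for 3 factors higher and 1 lower in TKO (17.1% and 19.2% of all genes) and for 1 and 1 in DKO (18.7% and 18.6%). Without WT clone O4.2, 4 factors were called higher in TKO, beside 2.44% of all genes in that fit: Zfp42 (2.15), Nr5a2 (1.71), Esrrb (1.54) and Klf4 (1.14).

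Tet2-/- was also set against the mean of the other 3 knockouts at D6, a comparison of levels without WT. The WT libraries still enter its estimate of the spread, and they were not left out in turn here. Klf2, Klf4, Esrrb, Nr0b1, Prdm14 and Nr5a2 were called higher, 6 of 10 factors beside 3.69% of genes. Nr0b1 differed the most, with 48.4 and 51.2 CPM in Tet2-/- against 3.68 to 16.9 in the 7 other knockout libraries (log2 fold change 2.55, SE 0.576, adjusted p = 0.0123, edgeR). Nr5a2 had 94.1 and 96.6 CPM against 12.1 to 45.4 (1.66, SE 0.426, adjusted p = 0.0208), and Esrrb 288 and 323 against 43.0 to 184 (1.41, SE 0.443, adjusted p = 0.0439). Zfp42, at 178 and 178 CPM, lay inside the 49.3 to 298 of the other knockouts, with a log2 difference of 0.16 (95% confidence interval -0.76 to 1.09). Both Tet2-/- clones were above all 7 libraries for 7 factors, beside 17.8% of genes. Without either Tet2-/- clone the count fell to 0 (1.19% and 0.253% of genes), without DKO replicate 1 it was 1 (Nr0b1; 2.80%), and without DKO replicate 2 or TKO replicate 2 it was 3 (3.21% and 3.16%).

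Whether the loss over 6 days itself differed from that in WT was tested with an interaction term. In Tet2-/- the change of Zfp42 was smaller by 2.06 on the log2 scale (SE 0.544, adjusted p = 0.0182, edgeR), since it started lower and ended higher than in WT. For Nr0b1 the difference between the changes was 2.46 (SE 0.737, adjusted p = 0.0312) and for Nr5a2 1.94 (SE 0.567, adjusted p = 0.0283). These 3 of 10 were called, beside 3.54% of genes called in this direction. Klf2 (1.36, adjusted p = 0.104) and Esrrb (1.21, adjusted p = 0.155) were not called. With the clone as a block they were, at 1.53 (adjusted p = 0.0272) and 1.48 (adjusted p = 0.0279), which made 5, beside 4.29% of genes. The differences for Klf5 (-0.09, 95% confidence interval -0.79 to 0.62) and Tbx3 (-0.64, 95% confidence interval -1.63 to 0.35) had the other sign.

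Leaving out single libraries moved this count too. It was 7 without D6 WT clone O4.2 (6.18% of all genes called higher) and 0 without any 1 of the 4 Tet2-/- libraries (0.849% to 1.73%), fits in which the lone clone is assumed to vary like the other groups. Without D0 WT clone O4.2, D6 WT clone O4.1 or D6 WT clone O4.13 only Zfp42 was called, at 2.06, 1.78 and 1.96 (1.86% to 2.58% of genes). In the other knockouts no factor differed from WT in its change, in the order Tet1-/-, DKO, TKO (0.00%, 0.00% and 1.84% of genes were called higher and 0.00%, 0.00% and 1.74% lower). At an unadjusted p under 0.05 there were 0, 1 (Tbx3 in DKO, -1.22) and 2 factors (Klf2, 1.36, and Zfp42, 1.30, in TKO), beside 7.67%, 8.02% and 23.6% of all genes, and DESeq2 called 0 in each. With the clone as a block Klf2 (1.49, adjusted p = 0.0490) and Zfp42 (1.42, adjusted p = 0.0455) were called in TKO (2.73% of genes called higher), and without D6 WT clone O4.2 there were 6 (3.96%).

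Over the 12 D6 libraries the factors could be ranked by clone. Tet2-/- replicate 2 was the highest library for 7 of the 10. WT clone O4.1 was the lowest for 5 and Tet1-/- clone 2.2 for 4, with 43.0 CPM of Esrrb, 39.7 of Tfcp2l1 and 15.3 of Klf4 in clone 2.2. The exceptions at the top were Zfp42 (TKO replicate 1, 298 CPM), Klf5 (DKO replicate 2, 86.6) and Tbx3 (WT clone O4.13, 122). Klf5 had the smallest range at D6, 2.65-fold from its highest to its lowest library. At D0 the ranges ran from 1.34-fold (Nr5a2) to 3.08-fold (Klf2). How many of all genes were highest or lowest in the same libraries was not counted.

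Across these libraries most factors were high and low in the same libraries, as a description over 12 libraries that share genotypes and scaling. Pearson's r of log2 CPM was 0.97 for Esrrb with Nr5a2, 0.97 for Nr0b1 with Nr5a2, 0.96 for Klf2 with Nr0b1 and 0.95 for Klf4 with Esrrb. Klf5 followed the others less, with r from 0.22 (Prdm14) to 0.76 (Zfp42) apart from Tbx3. Tbx3 had negative r to all 9 others, at -0.74 with Zfp42 and -0.70 with Klf5. With the rest the values were weak, from -0.07 (Prdm14) to -0.39 (Nr5a2). Over the 12 D0 libraries Tbx3 had r of 0.79 with Nr0b1 and 0.78 with Klf2. There it was Zfp42 that ran against others, with r of -0.88 to Tfcp2l1 and -0.80 to Esrrb. The 2 Tet2-/- libraries at D0 were the lowest for Zfp42 and the highest for both Tfcp2l1 and Esrrb.

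**Figure D5:**
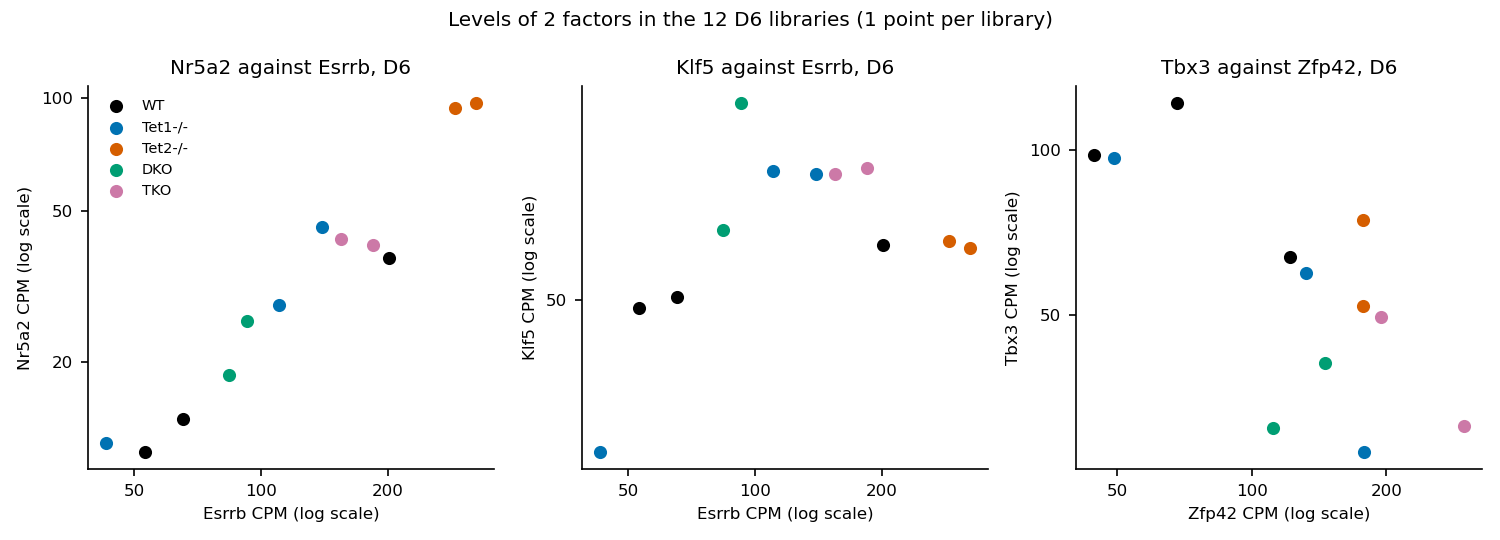
CPM (log scales) of Nr5a2 against Esrrb, Klf5 against Esrrb and Tbx3 against Zfp42 in the 12 D6 libraries, coloured by genotype. Nr5a2 is higher where Esrrb is higher (r = 0.97), Klf5 less so (r = 0.48), and Tbx3 is lower where Zfp42 is higher (r = -0.74).

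The genes whose levels were most like those of each factor were taken from 9232 genes, by Pearson's r over the 24 libraries after centring each day on its mean. Gsta4 was nearest to both Nr0b1 (0.96) and Klf2 (0.94), Mybl2 (0.96), Tm7sf3 (0.95) and Sox2 (0.94) to Esrrb, and Rfc5 (0.95), Mreg (0.94) and Gdf3 (0.94) to Nr5a2. Tdh (0.93) and Triml2 (0.90) stood nearest to Zfp42, Alpl (0.94) to Prdm14, Amt (0.90) and Nid2 (0.90) to Tfcp2l1 and Hap1 (0.89) to Klf4. For Tbx3 the nearest was Lama1 (0.88), a laminin chain, and for Klf5 the best match, Itsn2, had only 0.78.

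Other genes of the network were counted from lists, to be read against the shares of all tested genes called from D0 to D6, which were 20.7% higher and 13.3% lower in WT and 12.7% higher and 6.44% lower in Tet2-/-. Of 12 other genes of the naive state, 11 were called lower from D0 to D6 in WT and 5 in Tet2-/-, with the other knockouts between (Tet1-/- 10, DKO 9, TKO 7). Gbx2, a homeobox target of STAT3, went from 62.0 to 87.8 CPM at D0 to 0.835 to 2.71 at D6 in WT, and from 48.4 and 65.3 to 14.0 and 15.5 in Tet2-/-. Of the 12, 6 were called higher in Tet2-/- than in WT at D6 and Dppa3 lower, beside 4.81% and 9.45% of all genes in this comparison (median log2 fold change 1.53), with Tcl1 (3.18, adjusted p = 0.00433, edgeR) and Gbx2 (2.97, adjusted p = 0.00414) the most changed. Of the 4 core factors Pou5f1, Nanog, Sox2 and Sall4, 3 fell in WT and 0 were called in Tet2-/-, where Pou5f1 was higher than in WT at D6 (489 and 575 CPM against 207 to 268, log2 fold change 1.18, adjusted p = 0.0128). As with the 10 factors, calls between Tet2-/- and WT at D6 depend on both Tet2-/- libraries. For these genes and the lists below, none was kept without Tet2-/- replicate 2.

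Of 12 genes of the LIF and STAT3 pathway, 2 were called higher and 2 lower in WT over the 6 days, and 1 and 4 in Tet2-/-. The counts in WT are near the shares of all genes. Socs3, a direct target and inhibitor of STAT3, went from 186 to 200 CPM at D0 to 17.1 to 31.5 at D6 in WT and from 168 and 192 to 6.45 and 6.57 in Tet2-/-, and at D6 it was called lower in Tet2-/- than in WT (log2 fold change -2.05, adjusted p = 0.00550, edgeR). Between Tet2-/- and WT at D6, 3 of the 12 were called lower, Socs3 among them, and 0 higher, beside 9.45% and 4.81% of all genes. Stat3 itself was at 31.5 and 36.7 CPM in Tet2-/- and 48.9 to 74.9 in WT at D6. Of 11 genes tied to exit from the naive state, 1 was called higher and 1 lower in WT and 0 in Tet2-/-, and between Tet2-/- and WT at D6 none was called.

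Among 13 KLF genes outside the 10 factors, 2 were called higher and 2 lower in WT from D0 to D6, again near the shares of all genes. Klf6 went from 25.7 to 30.0 CPM to 140 to 266, the opposite direction to Klf2, Klf4 and Klf5, while Klf17 fell at a low level (0.929 to 1.65 CPM to 0.0504 to 0.318). In Tet2-/- at D6 1 of the 13 was called higher than in WT (Klf12, 1.13) and 1 lower (Klf11, -1.17), near the 4.81% and 9.45% of all genes. Of the nuclear receptor relatives 4 could be tested over the days, and 3 rose in WT, among them Nr2f2 (log2 fold change 3.75) and Esrrg (2.12).

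Of 13 formative and primed genes, 10 rose and 1 fell in WT (20.7% and 13.3% of all genes) and 11 rose in Tet2-/- (12.7%), and their summed level at D6 was 1425 to 2015 CPM in WT and 2388 and 2640 in Tet2-/-. Fgf5, a marker of the formative and primed epiblast, went from 0.0427 and 0.0584 CPM, under the level of 3 counts, to 117 and 135 in Tet2-/-, and to 96.1 to 202 in WT. The lineage lists can be read against 9.45% of all genes called lower and 4.81% higher in Tet2-/- than in WT. All 6 measured genes of primitive streak and mesoderm, 5 of 6 of endoderm and 6 of 7 of trophectoderm were called lower in Tet2-/- than in WT at D6, and 3 of 4 of neuroectoderm were called higher, Tubb3 and Pax6 (log2 fold change 2.84) among them. Of the 4 endothelial genes tested, 2 (Kdr and Sox17) were lower. None of these lineage calls was kept without Tet2-/- replicate 2 at D6, a fit in which 1 Tet2-/- clone is left.

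The summed levels of these markers at D6 are given beside those of the 10 factors, which summed to 1112 and 1205 CPM in Tet2-/- and 380 to 800 in WT. The sums of the factors were 330 to 700 CPM (Tet1-/-), 453 and 577 (DKO), 866 and 808 (TKO) for the other knockouts. The 6 measured mesoderm genes summed to 11.2 and 23.4 CPM in Tet2-/- and 138 to 405 in WT, with Hand2 at 0 in both Tet2-/- libraries. The 7 endoderm genes summed to 21.0 and 25.8 CPM against 98.2 to 368, and the 7 trophectoderm genes to 185 and 213 against 749 to 1733, with Elf5 at 0 in both Tet2-/- libraries. In WT the lowest of these sums were those of clone O4.2 (138, 98.2 and 749 CPM), the clone with the most of 9 factors left, and the 6 endothelial genes summed to 34.5 CPM there and to 154 and 157 in the other WT clones, with Emcn at 0 in all D6 libraries. Tet1-/- clone 2.2, low in the factors, had 477 CPM of the mesoderm genes and 294 of the endoderm genes, but its 920 CPM of the trophectoderm genes were fewer than the 1287 of clone 2.1, which kept more of the factors. TKO replicate 2, with 808 CPM of the factors, had 346 CPM of the mesoderm genes, inside the range of WT, and DKO replicate 1, with 453 CPM of the factors, had 169.5. The neuroectoderm genes were at 195 and 205 CPM in Tet2-/- and 95.8 to 128 in WT. At D0 they had been higher in both, at 239 and 299 CPM in Tet2-/- and 142 to 225 in WT. The part of such cells in the levels of the naive factors was not tested.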

How the data were processed

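RNA of 24 libraries (12 at D0, 12 at D6) was sequenced as polyA-selected, paired-end reads. The authors aligned reads to mm9 with STAR 2.5.1 and deposited raw counts per RefSeq transcript line. The counting program is given differently in the sources and the strand setting is not given, so reads of overlapping and antisense genes cannot be told apart. The tables held 31928 lines for 22926 symbols, and the first line per symbol was used (4911 symbols had more than 1). Other lines of Esrrb, Tbx3 and Nr5a2 differed from the first by at most 0.106%, 2.04% and 3.85%. There were 0 spike-in lines, so the study's scaling to spike-ins was not repeated.

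Counts were scaled by TMM and tested with edgeR 4.0.16 (R 4.3.3, limma 3.58.1, glmQLFit and glmQLFTest, filterByExpr with a minimum count of 10). Changes from D0 to D6 and their differences were fitted over all 24 libraries (15639 genes), and comparisons within a day over that day's libraries (14456 at D0, 15435 at D6). Calls needed a p under 0.05 after Benjamini-Hochberg adjustment and a change over 2-fold. Each library is 1 clone on 1 day, so p-values measure the spread between clones together with that of culture and library preparation. Library totals gave each CPM its precision (21729346 to 37290208 counts at D0, 18400463 to 34219640 at D6). Likeness used log2 CPM with a pseudocount of 1 over genes of mean CPM at least 10.

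The clone named in the labels pairs libraries across days: 11 clones were sampled on both days (1 DKO label lacks its decimal point and was read as the D0 clone of the same digits), and their deviations from the group means correlated at 0.081 to 0.193 (10 of 11 over 0.1). In a genotype of 2 clones the deviations mirror each other, so both clones give the same value (0.122 in Tet2-/-, 0.176 in DKO, 0.193 in TKO). The 11 values are thus not independent. Alternatives were DESeq2 1.42.0, other scalings, no filter, no fold minimum, all libraries in 1 fit, blocks and leaving out each library. The scripts were tested on simulated data. The members and gene lists were chosen with earlier results of these data known. Genes of the network lists were named as the 2 called genes of largest log2 fold change in a list, and any others named were chosen after their values were seen.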

Additional observations from a re-analysis of the deposited data

Results flagged for a closer look

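The fall from D0 to D6 differed between Tet2-/- and WT for 3 of the 10 factors by the test of the difference itself (an interaction term in edgeR, p adjusted over all genes), beside 3.54% of all genes called in this direction. The count was 0 without any 1 of the 4 Tet2-/- libraries and 7 without D6 WT clone O4.2 (6.18% of all genes). The difference of the log2 fold changes was 2.06 for Zfp42 (SE 0.544, adjusted p = 0.0182), 2.46 for Nr0b1 (SE 0.737, adjusted p = 0.0312) and 1.94 for Nr5a2 (SE 0.567, adjusted p = 0.0283). In both Tet2-/- clones the share of the D0 level left at D6 was above that of all 3 WT clones for these 3 factors. The shares come from the libraries of the test itself, so they are no further support. Klf2 (33.3% and 40.9% against 7.37% to 26.2%) and Esrrb (28.6% and 31.8% against 6.53% to 23.8%) separated in the same way, and the remaining factors did not. How many of all genes separate so was not counted.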

How the results depend on the processing

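Of 2690 values of single factors under the alternatives, 2568 stayed on the same side of the threshold, 76 no longer passed it, 46 newly passed it and 0 called values changed sign. Without the fold minimum, 2 factors were called at D0 in Tet2-/- (1 higher and 1 lower, beside 5.02% and 4.79% of genes). In TKO there were 3 at D0 (1 higher and 2 lower, beside 4.44% and 4.17%). For Tet2-/- against the other knockouts at D0 there were 4 (3 higher and 1 lower, beside 12.5% and 11.1%). At D6 against WT, DESeq2 called 5 higher in Tet2-/- (5.13% of genes higher) and 1 lower in DKO (0.574% lower). In TKO it called 2, 1 higher and 1 lower (1.25% and 1.98%). With all 24 libraries in 1 fit there were 6 higher in Tet2-/- (6.06%) and 2 in TKO, 1 higher and 1 lower (1.56% and 1.73%). With the clone as a replicate block, the change differed from WT for 5 factors in Tet2-/- (4.29% of genes called higher) and 2 in TKO (2.73%). The clone block moved no other count of factors. The cause of these shifts was not tested.

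Leaving out 1 library gave 4 to 8 factors called for Tet2-/- and 9 to 10 for TKO over the 6 days, 0 to 2 for TKO at D0, 0 to 8 for Tet2-/- and 0 to 4 for TKO at D6, 0 to 7 (Tet2-/-) and 0 to 6 (TKO) for the difference in change, and 0 to 6 for Tet2-/- against the other knockouts at D6. The other counts did not move. The shares of all genes called moved in the same fits, so these ranges are no trait of the factors alone. Scaling by library totals moved the median of all genes from D0 to D6 by up to 0.21 on the log2 scale, and the factors' medians were then -2.73 in WT and -1.56 in Tet2-/-. Whether replicate numbers within a day mark a shared origin could not be decided. The deviations of libraries with the same number correlated over 0.1 in 11 of 21 pairs at D0 (-0.072 to 0.312). At D6 they did in 7 of 21 (-0.377 to 0.312). In genotypes of 2 clones the deviations mirror each other, so these pairs are not independent. A replicate block on the numbers gave 4 factors for Tet2-/- against the other knockouts at D6.

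Counts over all genes moved by over 1.5 times as follows, apart from the fits without 1 library. Those fits moved such counts too and are not listed here. Over the 6 days the fold minimum took them from 10366 to 5317 in WT, 9911 to 4861 in Tet1-/-, 6250 to 2987 in Tet2-/-, 8701 to 4564 in DKO and 7896 to 3976 in TKO. Without it there were 2 against 1 (Tet1-/-), 1417 against 461 (Tet2-/-) and 1245 against 455 (TKO) at D0, 4400 against 2201 in Tet2-/- at D6, 2499 against 1357 (Tet2-/-) and 933 against 560 (TKO) for the difference in change, and 3409 against 810 (D0) and 3419 against 1654 (D6) for Tet2-/- against the other knockouts. DESeq2 gave 51 (Tet1-/-) and 110 (DKO) at D0 against 1 and 5, 44, 189 and 481 at D6 in Tet1-/-, DKO and TKO against 0, and 12 and 20 for the difference in change in Tet1-/- and DKO against 0. With no filter there were 29 (Tet1-/-) and 79 (DKO) at D0 and 93 (TKO) at D6, with all libraries in 1 fit 13 (Tet1-/-, D0), 98 (DKO, D6) and 515 (TKO, D6), and with blocks 17 (DKO, D0) and 3 (DKO, difference in change).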
